A study of Homo sapiens with 6 samples.

Results

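The genes described here are 49 that encode the machinery of DNA replication, chosen by symbol out of 62703 genes counted and grouped by what their proteins do. All 49 had enough counts to be tested, with 18 to 9725 counts per library. Their mRNA was counted by RNA sequencing of whole cultures of MDA-MB-231, a line of human breast cancer cells that lack hormone receptors and HER2 amplification, in 3 libraries from cells with hairpin RNA against RNF20 (shRNF20) and 3 libraries from cells with a control hairpin (shControl). RNF20 is an E3 ubiquitin ligase that acts on histone H2B. Both groups are the same line and both carry a hairpin. The labels give neither the number of hairpin sequences nor whether the cells were pools or clones, nor that the replicates were separate cultures. The p-values therefore measure only the spread between these libraries, which may be technical.

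Chromosomes are copied once per cell cycle in ordered steps. The origin recognition complex (ORC) marks origins, and CDC6 and CDT1 help it load the ring-shaped MCM2-7 helicase, a step called licensing that geminin (GMNN) blocks by binding CDT1. In S phase the kinase CDC7, with its activator DBF4, and the factors CDC45 and GINS turn the loaded ring into a moving fork, where primase, polymerases, the sliding clamp PCNA and its loader RFC copy the DNA from nucleotides that ribonucleotide reductase helps to make. Many of these genes are known targets of E2F transcription factors in proliferating cells.

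RNF20 mRNA stood at 14.1, 12.2 and 11.1 CPM in shRNF20 and at 57.8, 58.5 and 58.0 CPM in shControl (counts per 1e+06 gene counts, after TMM scaling; edgeR log2 fold change -2.22, SE 0.11, adjusted p = 5.23e-06). Gene counts totalled 21988826 to 28265573 in shRNF20 and 23786533 to 29685306 in shControl. Mitochondrial genes took 4.91% to 6.22% of gene counts in shRNF20 and 0.934% to 1.38% in shControl. Counts of calls from a fit without these genes are given with the results. Of the markers of the line, VIM, CD44, EGFR and AXL lay between 341 and 1426 CPM in every library. Of the luminal and receptor genes, ESR1 stood at 1.27 to 1.68 CPM in shRNF20 and 0 to 0.197 CPM in shControl and rose (adjusted p = 0.000692 in edgeR), and PGR, which was not tested, stayed at or under 0.213 CPM. CDH1 stood at 6.49 to 7.66 CPM in shRNF20 and 13.3 to 26.2 CPM in shControl, and ERBB2 at 138 to 141 CPM in shRNF20 and 91.3 to 108 CPM in shControl. Of 5 leukocyte markers, PTPRC stayed under 0.95 CPM and the other 4 at or under 0.043 CPM. One of these 4, CD68, shares 85.8% of its exon bases with other genes. Reads there were not counted, so its low value does not show absence. Of 5 fibroblast and endothelial markers, COL1A1 stood at 29.4 to 31.3 CPM in shRNF20 and 12.7 to 13.9 CPM in shControl, PECAM1 at 0.597 to 0.726 CPM in shRNF20 and 3.88 to 6.87 CPM in shControl, and the other 3 at or under 1.36 CPM.

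The control libraries disagreed about these genes. shControl replicate 2 was the lowest of the 3 controls for 47 of the 49 genes, against 36.3% of all genes tested. The exceptions were CDC7, lowest in shControl replicate 1, and RFC1, lowest in shControl replicate 3. Relative to the mean of the 3 controls, the median gene of the list departed by 0.20 in shControl replicate 1, -0.32 in shControl replicate 2 and 0.15 in shControl replicate 3 on the log2-CPM scale, while the median over all genes tested departed by 0.01, 0.00 and -0.00. The median SD of log2-CPM over libraries was 0.054 in shRNF20 and 0.33 in shControl for these genes, against 0.086 in shRNF20 and 0.21 in shControl over all genes tested. The SD was larger in shControl for 48 of the 49, the exception being RPA3. Values without shControl replicate 2 are therefore given beside the main ones. That library was picked for its values in these same genes, and leaving it out narrows the spread of the controls. The adjusted p-values of that fit are therefore likely too small, and calls gained in it are not separate evidence. A reference list of 20 G2/M genes had shControl replicate 2 lowest in 20 of 20. That list was chosen with earlier results of these data known, so this count is not separate support. In bulk RNA a smaller share of cells in S or G2 phase and less of these RNAs per cell cannot be told apart.

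**Figure D1:**
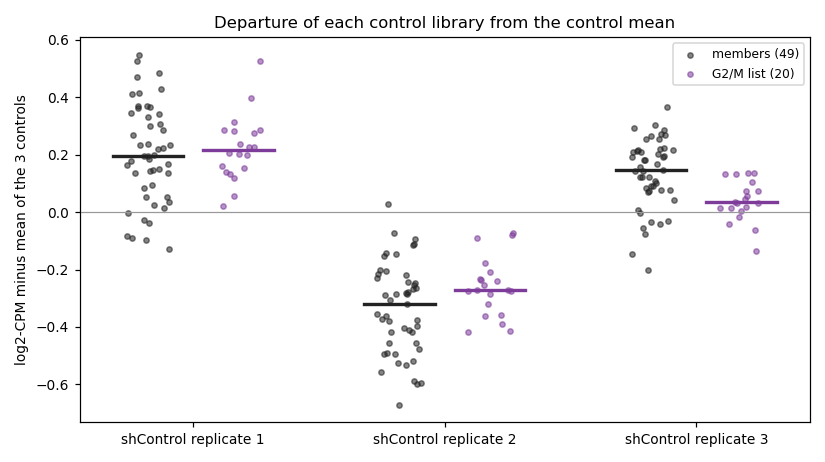
Each point is 1 gene, and its height is the log2-CPM of a shControl library minus the mean of the 3 shControl libraries. Black points are the 49 replication genes, purple points the 20 G2/M genes, and bars are medians (-0.32 and -0.27 in shControl replicate 2). The points of replicate 2 lie almost all under 0.

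Replication genes moved in both directions in shRNF20 cells. By edgeR's quasi-likelihood test with Benjamini-Hochberg adjustment over 15797 genes, 9 rose (ORC4, ORC6, CDC6, GMNN, GINS1, GINS2, POLE, RFC1 and RFC5) and 13 fell (MCM7, CDC7, CDC45, POLA2, PRIM1, RFC2, RPA3, FEN1, RRM1, RRM2, TYMS, TK1 and CHAF1B). The other 27 did not pass the threshold of 0.05. Of all genes tested, 58.4% passed, 28.7% higher and 29.8% lower, so the 44.9% of replication genes that passed were a smaller share than the background. The median log2 fold change was -0.03 over the 49 and -0.01 over all genes tested. The 3 shRNF20 values lay wholly above the 3 shControl values for 10 of the genes and wholly below for 13, against 33.5% above and 32.8% below among all genes tested. For 22 of the 49 the shRNF20 mean lay inside the range of the 3 controls, against 23.3% of all genes tested.

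Without shControl replicate 2 the fold change was lower for all 49 genes, and the balance moved to lower expression. For nearly all genes this follows from the choice of library, since it was the lowest control for 47 of the 49, and is no separate result. RFC1, for which it was the highest control, moved only from 0.44 to 0.43. In that fit 5 rose (ORC4, ORC6, CDC6, GMNN and RFC1) and 24 fell, where 29.1% of 16329 genes tested were higher and 30.8% lower. The 24 were the 13 above and ORC1, MCM2, MCM3, MCM4, MCM6, GINS3, GINS4, PRIM2, POLE2, DUT and CHAF1A. The median became -0.15. Without mitochondrial genes in the fit 6 rose and 14 fell, where 28.3% of 15844 genes were higher and 30.1% lower; GINS1, POLE and RFC5 missed the threshold there and GINS4 passed as lower. Leaving out any 1 shRNF20 library left 3 that rose (ORC6, GMNN and RFC1 kept their call in every such fit) and 9 to 11 that fell. Calls were fewer over all genes too in those 3 fits, with 22.2%, 22.3% and 22.6% higher and 24%, 24.3% and 24.1% lower. With all libraries these shares were 28.7% and 29.8%. ORC4, CDC6, GINS1, GINS2, POLE and RFC5 lost their call in each of those 3 fits. Whether replication genes lost calls more often than other genes was not tested. With the 3 shRNF20 libraries summed to 1 sample, edgeR called 0 higher and 3 lower (MCM7, CDC7 and RRM2), where 10.1% of 17440 genes were higher and 9.28% lower. In that fit 3 were higher and 7 lower at an unadjusted p under 0.05, and the lone shRNF20 sample is assumed to vary like the controls.

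**Figure D2:**
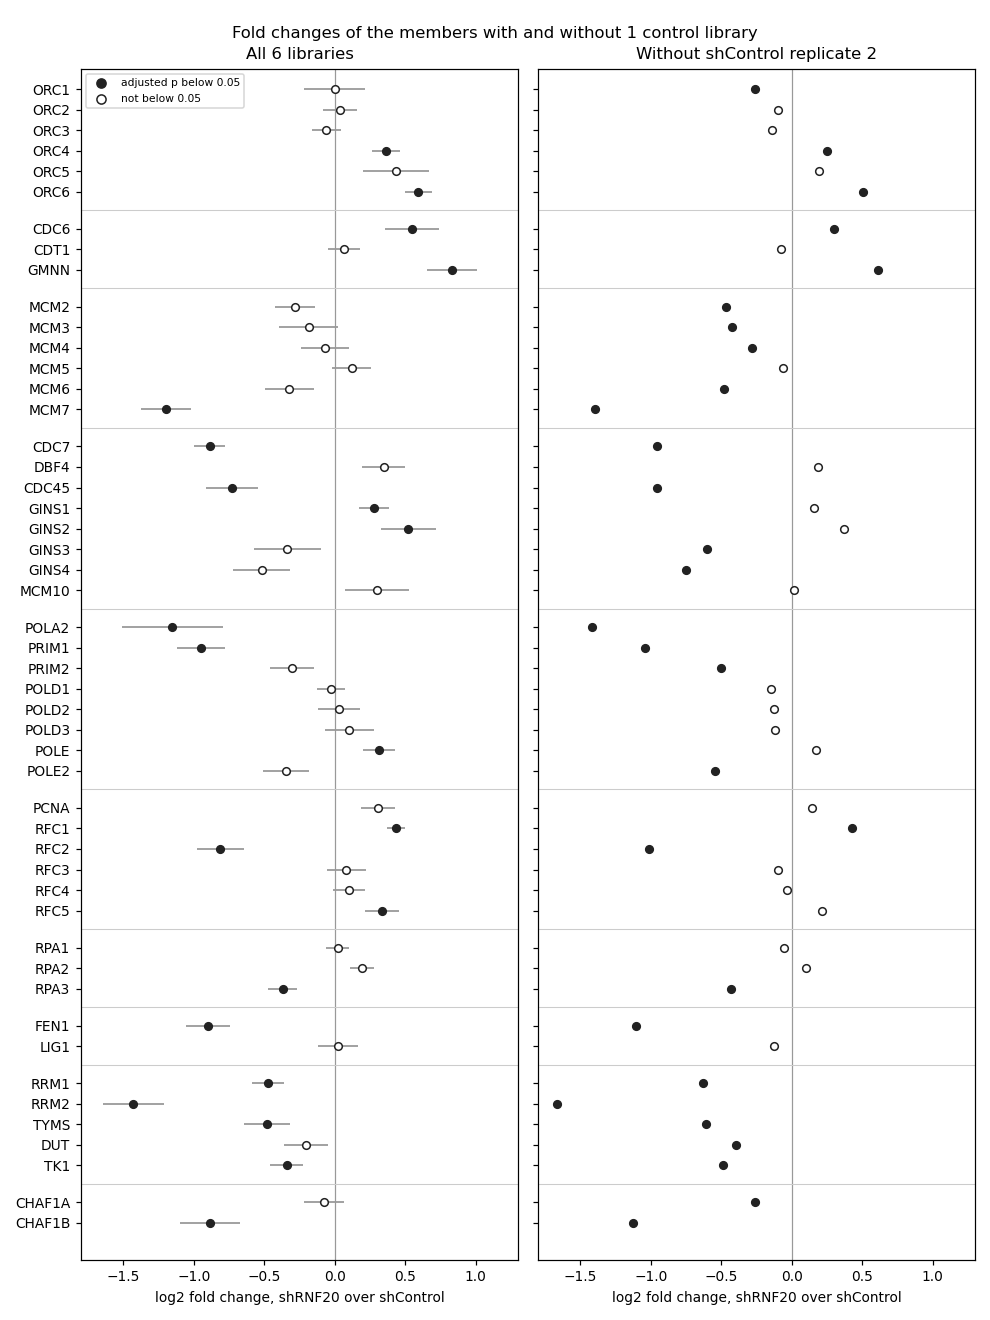
The log2 fold change of each of the 49 genes, shRNF20 over shControl, is drawn with all 6 libraries (left, bars are the standard error) and without shControl replicate 2 (right). Filled points had an adjusted p below 0.05 in edgeR. Every point on the right lies lower than its partner on the left, since the library left out was the lowest control for nearly all genes. With all libraries 9 rose and 13 fell, while 5 rose and 24 fell without replicate 2.

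The promoter sequences of GMNN, the largest rise among genes past the threshold, and of RRM2 and MCM7, the largest falls, are shown because these genes mark the ends of the range and differ in the E2F and CCAAT words they hold. Each runs 5′ to 3′ on the gene's strand from 250 bases before to 50 after the RefSeq start (GRCh38.p14). They lie at chr6:24774687-24774986 (+) for GMNN, chr2:10122489-10122788 (+) for RRM2 and chr7:100101348-100101647 (-) for MCM7. Capitals mark E2F words (TTTCCCGC, TTTCGCGC, TTTGCCGC or TTTGGCGC), the cell cycle homology word TTTGAA and CCAAT, each on either strand.
GMNN promoter: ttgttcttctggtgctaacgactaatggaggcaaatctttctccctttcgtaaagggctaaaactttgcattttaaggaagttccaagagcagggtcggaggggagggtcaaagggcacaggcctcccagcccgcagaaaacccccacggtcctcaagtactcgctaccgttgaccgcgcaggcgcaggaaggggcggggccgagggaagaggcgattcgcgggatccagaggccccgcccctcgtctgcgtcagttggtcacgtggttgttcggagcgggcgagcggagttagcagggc
RRM2 promoter: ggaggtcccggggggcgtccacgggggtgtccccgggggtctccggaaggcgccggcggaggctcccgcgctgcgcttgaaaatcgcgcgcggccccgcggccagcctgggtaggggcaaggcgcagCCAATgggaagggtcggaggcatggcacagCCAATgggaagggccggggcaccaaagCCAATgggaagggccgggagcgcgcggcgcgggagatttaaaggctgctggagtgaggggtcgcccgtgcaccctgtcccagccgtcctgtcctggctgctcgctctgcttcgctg
MCM7 promoter: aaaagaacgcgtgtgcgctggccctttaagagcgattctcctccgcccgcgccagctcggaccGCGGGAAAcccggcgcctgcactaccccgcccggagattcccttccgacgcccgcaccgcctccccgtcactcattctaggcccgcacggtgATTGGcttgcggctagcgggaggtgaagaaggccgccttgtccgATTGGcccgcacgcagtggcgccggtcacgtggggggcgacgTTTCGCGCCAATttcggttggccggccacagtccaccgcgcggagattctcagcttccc
The GMNN window held none of the words. The RRM2 window held 3 CCAAT words, from bases 128, 158 and 185 of the window, each within the same 15-base run, agCCAATgggaaggg, which occurs 3 times. The MCM7 window held 2 E2F words, from bases 64 and 242, and 3 CCAAT words, of which the last shares its first base with the second E2F word. Of the 49 genes, 43 had a RefSeq promoter to search. An E2F word stood in 17 of the 43 (39.5%), against 3.33% of 27305 promoters of the same length, and CCAAT in 22 (51.2%), against 35.7%. TTTGAA stood in 2 of the 43 (4.65%), against 15.4% of all promoters. E2F words stood in 4 of 9 genes that rose, 3 of 12 that fell and 10 of 22 that did not pass. CCAAT stood in 7 of 9 that rose, 5 of 12 that fell and 10 of 22 that did not pass. GMNN, without CCAAT, was thus in the minority among genes that rose. RRM2 and MCM7, with 3 CCAAT words each, were among the 5 that fell and held it. These counts are small, and a link of CCAAT to direction was not tested.

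Among the subunits of ORC, ORC6 and ORC4 rose and none fell (2 of 6, median log2 fold change 0.20), where 28.7% of all genes tested rose and 29.8% fell. ORC6, the smallest and most loosely bound subunit (chromosome 16, 46689643 to 46698394, GRCh38), had 58.4, 54.0 and 55.4 CPM in shRNF20 and 36.2, 33.5 and 41.6 CPM in shControl (log2 fold change 0.59 with SE 0.10, adjusted p = 0.000971 in edgeR). All 3 shRNF20 libraries were above every control, and the log2 fold change without shControl replicate 2 was 0.50. ORC4, one of the ATPase-fold subunits of the ring (chromosome 2, 147930397 to 148021604), had 43.6, 44.0 and 45.1 CPM in shRNF20 and 37.6, 29.6 and 35.9 CPM in shControl (log2 fold change 0.36 with SE 0.10, adjusted p = 0.0145 in edgeR). Its groups did not overlap either, but ORC4 missed the threshold without any 1 of the shRNF20 libraries (edgeR adjusted p 0.0504 to 0.0628) and had a log2 fold change of 0.25 without shControl replicate 2. ORC2 and ORC3 had log2 fold changes of 0.04 and -0.06 and did not pass (-0.10 and -0.14 without shControl replicate 2). ORC5 did not pass either, at a log2 fold change of 0.43 with all libraries and 0.19 without shControl replicate 2, but it passed without shControl replicate 1 (0.74, edgeR adjusted p = 0.00461). ORC1, the subunit that comes and goes with the cell cycle, was at 19.4, 20.6 and 19.5 CPM in shRNF20 and 24.0, 12.7 and 22.8 CPM in shControl. Its log2 fold change was -0.00 (edgeR adjusted p = 0.997) with all libraries and -0.26 (edgeR adjusted p = 0.0353) without shControl replicate 2.

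Of the factors that load the helicase, CDC6 rose and CDT1 did not pass, while the inhibitor GMNN rose most of all 49 genes. GMNN (ENSG00000112312.10, chromosome 6, 24774931 to 24786099) had 73.1, 66.3 and 67.4 CPM in shRNF20 and 48.6, 27.4 and 40.1 CPM in shControl. It was 1.78-fold higher in shRNF20 (log2 fold change 0.83 with SE 0.18, adjusted p = 0.00393 in edgeR), with no overlap of the groups, and 0.61 higher on the log2 scale without shControl replicate 2. CDC6, the ATPase that joins ORC to start loading (chromosome 17, 40287633 to 40304657), had 134 CPM in each shRNF20 library, with an SD of 0.224, and 108, 60.2 and 107 CPM in shControl. Its log2 fold change was 0.55 (SE 0.19, edgeR adjusted p = 0.0369) with all libraries and 0.30 (edgeR adjusted p = 0.00191) without shControl replicate 2. CDC6 missed the threshold without any 1 shRNF20 library, at edgeR adjusted p 0.0915 to 0.0960. CDT1, which brings the helicase to ORC (chromosome 16, 88803213 to 88809258), had 67.9, 72.0 and 65.8 CPM in shRNF20 and 68.8, 54.0 and 73.6 CPM in shControl. The groups overlapped (log2 fold change 0.07 with SE 0.11, adjusted p = 0.639 in edgeR).

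MCM7 was the only 1 of the 6 helicase subunits to fall with all libraries in the fit, and none rose. Of all genes tested, 29.8% fell and 28.7% rose. MCM7 (ENSG00000166508.18, chromosome 7, 100092728 to 100101940) had 109, 114 and 109.9 CPM in shRNF20 and 329, 186 and 246 CPM in shControl. Every shRNF20 library was below every control, with a 2.29-fold lower level (log2 fold change -1.19 with SE 0.18, adjusted p = 0.000596 in edgeR). The call held in all 17 fits, with log2 fold changes between -1.40 and -0.98. MCM2 (chromosome 3, 127598223 to 127622436) had 67.0, 65.1 and 65.2 CPM in shRNF20 and 88.2, 60.6 and 91.1 CPM in shControl (log2 fold change -0.28 with SE 0.14, adjusted p = 0.118 in edgeR). Here shControl replicate 2 lay under the shRNF20 libraries and the other controls above them, and without it the log2 fold change was -0.47 (edgeR adjusted p = 0.000252). MCM3, MCM4, MCM5 and MCM6 had log2 fold changes of -0.18, -0.07, 0.12 and -0.32 and did not pass. Without shControl replicate 2 these were -0.43, -0.29, -0.06 and -0.48, and MCM5 alone of the 6 subunits did not pass.

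The 6 proteins form a ring with 1 copy of each, so the balance of their mRNAs was also set out per length, a view chosen after the values were seen. In CPM per kilobase of annotated exon, MCM7 stood at 25.3 ± 0.536 in shRNF20 and 57.8 ± 16.4 in shControl (SD, n = 3 each). MCM3 stood at 51.3 ± 1.46 in shRNF20 and 58.3 ± 19.7 in shControl, and MCM4 at 24.6 ± 1.12 in shRNF20 and 25.7 ± 6.61 in shControl. In shControl, MCM7 and MCM3 differed by less than their spread and both stood above MCM4, whereas in shRNF20 MCM7 and MCM4 differed by less than their spread. MCM2, MCM6 and MCM5 stood at 13.4, 11.4 and 11.1 in shRNF20 and at 16.3, 14.3 and 10.2 in shControl, where MCM2 and MCM6 differed by less than their spread, as did MCM6 and MCM5 in shRNF20. The level of MCM2 is an underestimate in both groups, since 23.6% of its exon bases are shared with other genes. Exon bases were pooled over all annotated transcripts of a gene, and which of these the cells make was not determined. The order of different genes is therefore approximate, and each gene is best read between groups. MCM7 made up 18.0%, 18.6% and 18.8% of the summed per-kilobase level of the 6 genes in shRNF20 and 32.2%, 32.3% and 30.5% in shControl. That share did not set shControl replicate 2 apart from the other controls.

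The genes of origin firing split, with GINS1 and GINS2 higher and CDC7 and CDC45 lower. CDC7, the kinase that phosphorylates the loaded helicase (chromosome 1, 91500893 to 91525764), had 21.6, 21.0 and 19.3 CPM in shRNF20 and 35.5, 35.5 and 43.4 CPM in shControl. Every shRNF20 library was below every control (log2 fold change -0.89 with SE 0.11, adjusted p = 0.000239 in edgeR, the smallest of the 49), and the value without shControl replicate 2 was -0.96. DBF4, which activates CDC7 (chromosome 7, 87876216 to 87909541), had 42.8, 39.2 and 40.1 CPM in shRNF20 and 39.9, 25.4 and 30.5 CPM in shControl. DBF4 overlapped between groups and did not pass (log2 fold change 0.35 with SE 0.15, adjusted p = 0.0792 in edgeR; 0.18 without shControl replicate 2). Without shControl replicate 1 it did pass, at a log2 fold change of 0.52 (edgeR adjusted p = 0.00361). CDC45, a subunit of the active helicase (chromosome 22, 19479459 to 19520612), had 22.1, 22.3 and 21.2 CPM in shRNF20 and 40.4, 25.1 and 43.3 CPM in shControl (log2 fold change -0.73 with SE 0.19, adjusted p = 0.00911 in edgeR). Its groups did not overlap, and the value without shControl replicate 2 was -0.96.

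GINS is a complex of 4 proteins that binds the helicase with CDC45. GINS1 had 75.0, 72.7 and 65.5 CPM in shRNF20 and 63.9, 49.9 and 61.6 CPM in shControl, and GINS2 had 20.4, 18.2 and 20.3 CPM in shRNF20 and 18.4, 10.97 and 11.5 CPM in shControl. Both passed narrowly with all libraries (log2 fold changes 0.28 and 0.52, edgeR adjusted p = 0.0494 and 0.0459). Neither passed without shControl replicate 2 (0.16 and 0.37), without shControl replicate 3 (0.31 and 0.41), or without any 1 shRNF20 library. GINS1 also missed the threshold with limma-voom, with RLE scaling, without the filter on low counts and without mitochondrial genes (adjusted p 0.0517, 0.0502, 0.0506 and 0.0565), and kept its call in 7 of 17 fits. GINS3 and GINS4 had log2 fold changes of -0.34 and -0.52 and did not pass, but both fell without shControl replicate 2 (-0.60 and -0.75). MCM10, a scaffold for helicase activation, was at 52.9, 53.8 and 52.7 CPM in shRNF20 and 53.0, 25.7 and 50.6 CPM in shControl. Its log2 fold change of 0.30 with all libraries was 0.01 without shControl replicate 2.

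Among primase and polymerase genes, PRIM1 and POLA2 fell and POLE rose. PRIM1, the catalytic subunit of primase (chromosome 12, 56731596 to 56752373), had 5.54, 5.90 and 7.10 CPM in shRNF20 and 10.8, 10.7 and 14.3 CPM in shControl (log2 fold change -0.95 with SE 0.17, adjusted p = 0.00166 in edgeR). The groups did not overlap, and without shControl replicate 2 the value was -1.04. POLA2, the accessory subunit of polymerase alpha (chromosome 11, 65261762 to 65305589), had only 18 to 87 counts, at 1.62, 0.817 and 1.05 CPM in shRNF20 and 2.95, 1.62 and 3.24 CPM in shControl (log2 fold change -1.15 with SE 0.36, adjusted p = 0.0223 in edgeR). Its highest shRNF20 library and its lowest control were almost level. POLA2 missed the threshold without shRNF20 replicate 2 (log2 fold change -0.98), shRNF20 replicate 3 (-1.09) or shControl replicate 3 (-0.98). Reads over exons shared with other genes were not counted, and this applies to 35.1% of the annotated exon bases of POLA2 and 21.6% of those of PRIM1. PRIM2, the large primase subunit, did not pass with all libraries (log2 fold change -0.31) and fell without shControl replicate 2 (-0.50).

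POLE, the catalytic subunit of the leading strand polymerase, had 149, 157 and 144 CPM in shRNF20 and 123, 100.2 and 139 CPM in shControl (log2 fold change 0.31 with SE 0.11, adjusted p = 0.0406 in edgeR). POLE did not overlap between groups but missed the threshold without shControl replicate 1 (0.30), without shControl replicate 2 (0.17) and without any 1 shRNF20 library (0.27 to 0.33), and also without mitochondrial genes in the fit (0.30, edgeR adjusted p = 0.0508). Its partner POLE2 had a log2 fold change of -0.35, which did not pass, and fell without shControl replicate 2 (-0.54). POLD1, POLD2 and POLD3, subunits of the lagging strand polymerase delta, had log2 fold changes of -0.03, 0.03 and 0.10. None of the 3 passed with all libraries or without shControl replicate 2.

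The clamp loader subunits moved apart. RFC1, the large subunit (chromosome 4, 39287456 to 39366375), had 138, 134 and 135 CPM in shRNF20 and 102, 102 and 96.6 CPM in shControl. The controls agreed closely on this gene, all below every shRNF20 library (log2 fold change 0.44 with SE 0.06, adjusted p = 0.000579 in edgeR; 0.43 without shControl replicate 2). RFC2, a small subunit (chromosome 7, 74231499 to 74254458), had 30.8, 29.1 and 32.6 CPM in shRNF20 and 65.6, 39.6 and 57.1 CPM in shControl. Every shRNF20 library was below every control (log2 fold change -0.81 with SE 0.17, adjusted p = 0.00327 in edgeR; -1.01 without shControl replicate 2). RFC5 rose, at 53.7, 55.5 and 54.3 CPM in shRNF20 and 40.3, 37.1 and 52.1 CPM in shControl (log2 fold change 0.34, adjusted p = 0.0433 in edgeR). RFC5 missed the threshold without shControl replicate 1 (0.27), shControl replicate 2 (0.21) or any 1 shRNF20 library (0.31 to 0.33), and also without mitochondrial genes in the fit (0.32, edgeR adjusted p = 0.0553). RFC3 and RFC4 had log2 fold changes of 0.08 and 0.10 and did not pass. RFC2 made up 15.5% ± 0.953 of the summed per-kilobase level of RFC1 to RFC5 in shRNF20 and 27.1% ± 3.43 in shControl (SD, n = 3 each), a share also chosen after the values were seen.

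PCNA, the sliding clamp that holds polymerases on DNA, had 186, 185 and 182 CPM in shRNF20 and 167, 118 and 163 CPM in shControl. All 3 shRNF20 libraries were above every control, yet the difference did not pass (log2 fold change 0.31 with SE 0.12, adjusted p = 0.0600 in edgeR). Without shControl replicate 2 the log2 fold change was 0.14 (edgeR adjusted p = 0.0555), and without shControl replicate 1 it was 0.37 (edgeR adjusted p = 0.0354), which passed. PCNA also passed, as higher, with upper quartile scaling, DESeq2, no filter, the stricter filter, the replicate block and the strand sum (adjusted p 0.0144 to 0.0488). Per kilobase of exon PCNA was the highest of the 49 in shRNF20, at 125 ± 1.56 against 101 ± 18.4 CPM per kilobase in shControl, where TK1 (82.3 ± 2.11 in shRNF20, 104 ± 17.5 in shControl) was level with it within the spread. POLA2 was the lowest in both groups, at 0.203 ± 0.0717 CPM per kilobase in shRNF20 and 0.454 ± 0.151 in shControl. Reads over 35.1% of its exon bases were not counted. Since exon bases again cover all annotated transcripts, this order of genes is approximate.

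**Figure D3:**
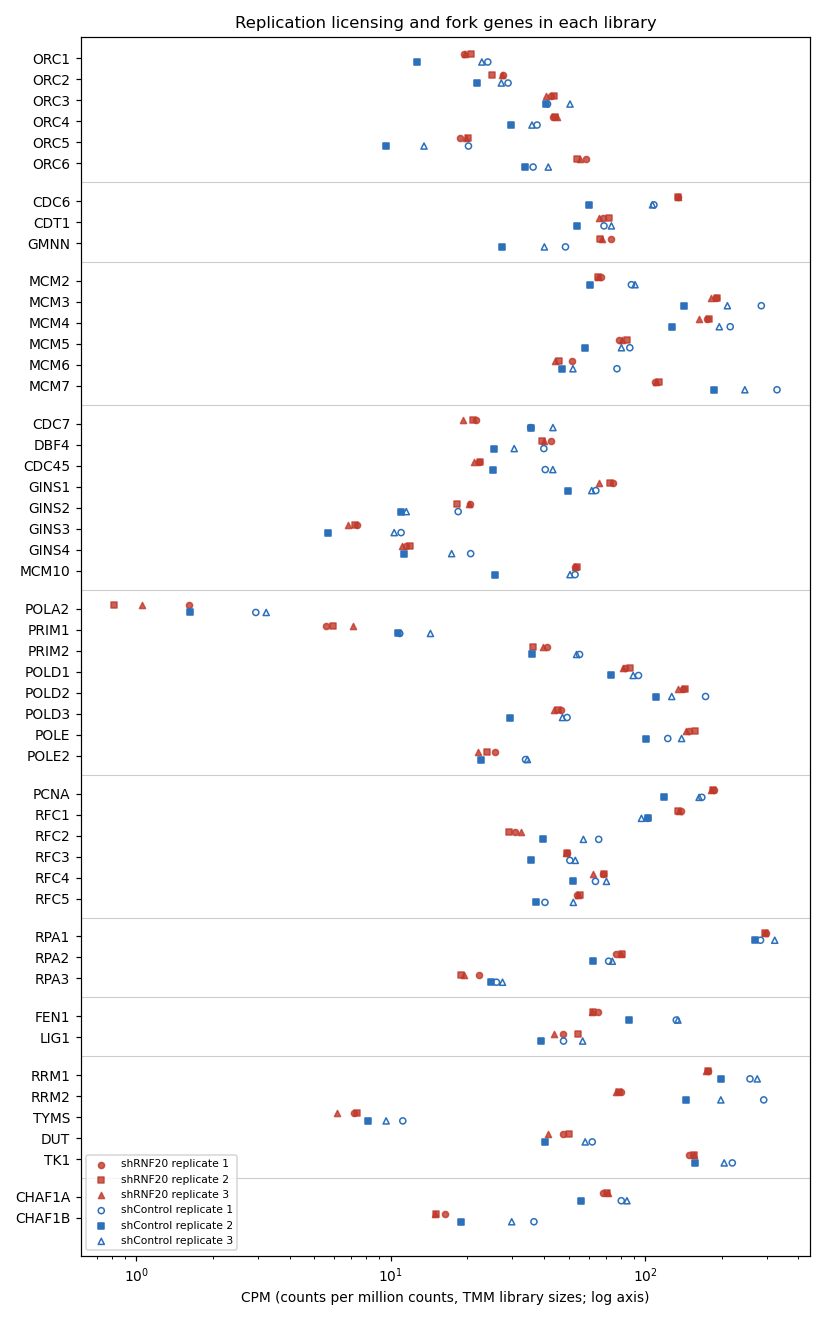
The CPM of each of the 49 genes is drawn on a log axis in every library, with the 3 shRNF20 libraries (red) above the 3 shControl libraries (blue, with replicate 2 as filled squares). Red points of a gene nearly coincide, while blue points spread with replicate 2 at the left. MCM7, RRM2 and FEN1 have all red points left of all blue ones, and GMNN and ORC6 have all red points to the right.

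Replication protein A, the trimer that coats single-stranded DNA, moved little. RPA3, its smallest subunit (chromosome 7, 7636518 to 7718607), had 22.2, 18.9 and 19.4 CPM in shRNF20 and 26.0, 24.8 and 27.5 CPM in shControl (log2 fold change -0.37 with SE 0.10, adjusted p = 0.0142 in edgeR). The groups did not overlap, and the value without shControl replicate 2 was -0.43. RPA3 missed the threshold without shRNF20 replicate 2 (-0.34, edgeR adjusted p = 0.0647) or shRNF20 replicate 3 (-0.36, edgeR adjusted p = 0.0574). RPA2 (chromosome 1, 27891524 to 27914746) had 76.6, 80.9 and 80.6 CPM in shRNF20 and 71.8, 62.2 and 74.2 CPM in shControl. Its shRNF20 libraries were all above the controls without passing (log2 fold change 0.19 with SE 0.08, adjusted p = 0.0767 in edgeR; 0.10 without shControl replicate 2). RPA1, the large subunit, had a log2 fold change of 0.02 and did not pass.

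FEN1 fell, and LIG1, which acts after it on the lagging strand, did not pass. FEN1, the nuclease that trims the flaps of Okazaki fragments (chromosome 11, 61792637 to 61797244), had 65.1, 62.2 and 61.8 CPM in shRNF20 and 132, 86.3 and 134 CPM in shControl. Every shRNF20 library was below every control (log2 fold change -0.90 with SE 0.16, adjusted p = 0.00131 in edgeR; -1.10 without shControl replicate 2). LIG1, the ligase that seals the fragments (chromosome 19, 48115445 to 48170603), had 47.4, 54.3 and 44.0 CPM in shRNF20 and 47.7, 38.9 and 56.7 CPM in shControl. The groups overlapped fully (log2 fold change 0.02 with SE 0.14, adjusted p = 0.897 in edgeR; -0.13 without shControl replicate 2).

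Of the genes of nucleotide supply, 4 of 5 fell and none rose (median -0.47 on the log2 scale), where 29.8% of all genes tested fell and 28.7% rose. The count was 5 of 5 without shControl replicate 2, where 30.8% of all genes tested fell. It was 2 of 5 without shControl replicate 1, shControl replicate 3 or any 1 shRNF20 library. Of all genes tested, 24% to 24.3% fell without 1 shRNF20 library. RRM2, the small subunit of ribonucleotide reductase that carries its radical cofactor (ENSG00000171848.16, chromosome 2, 10120698 to 10131419), had 80.0, 78.7 and 77.0 CPM in shRNF20 and 292, 144 and 198 CPM in shControl. Every shRNF20 library was below every control, and the 2.69-fold lower level was the largest fall of the 49 (log2 fold change -1.43 with SE 0.22, adjusted p = 0.000668 in edgeR; -1.66 without shControl replicate 2). Another annotated gene covers 20.2% of the exon bases of RRM2, and reads there were not counted. RRM1, the large catalytic subunit (chromosome 11, 4094707 to 4138876), had 176, 177 and 174 CPM in shRNF20 and 258, 198 and 275 CPM in shControl. It also fell without overlap (log2 fold change -0.47 with SE 0.12, adjusted p = 0.00752 in edgeR; -0.63 without shControl replicate 2). TK1, the thymidine salvage kinase, had 149, 155 and 156 CPM in shRNF20 and 219.7, 157 and 204 CPM in shControl (log2 fold change -0.34, adjusted p = 0.0340 in edgeR; -0.49 without shControl replicate 2). TK1 missed the threshold without shControl replicate 1 (-0.26), shControl replicate 3 (-0.31) or any 1 shRNF20 library (-0.36 to -0.33). DUT, which removes dUTP, had a log2 fold change of -0.20, which did not pass, and fell without shControl replicate 2 (-0.40).

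TYMS, the thymidylate synthase, needs its counting spelled out. Antisense genes ENOSF1 and TYMSOS overlap 46.6% of its exon bases, and reads over shared exons were set aside in the unstranded counts. What remained were 187, 162 and 175 counts in shRNF20 and 329, 206 and 225 in shControl, which is 5.76% of the 2640, 2237 and 2636 counts in shRNF20 and 6487, 3614 and 4680 in shControl that the 2 strand columns held together. TYMS fell by either count, with log2 fold changes of -0.48 (SE 0.16, edgeR adjusted p = 0.0315) unstranded and -0.90 (SE 0.14, edgeR adjusted p = 0.000866) from the strand sum. The libraries do not keep strand, so the strand sum can hold reads of TYMS's antisense neighbours. The unstranded call was lost without shControl replicate 1 (-0.38), shControl replicate 3 (-0.49) or any 1 shRNF20 library (-0.54 to -0.42).

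CHAF1B fell and CHAF1A, its partner in the chromatin assembly factor that puts histones on new DNA, did not pass. CHAF1B (chromosome 21, 36385378 to 36419015) had 16.4, 15.0 and 14.9 CPM in shRNF20 and 36.5, 18.9 and 29.9 CPM in shControl. Every shRNF20 library was below every control (log2 fold change -0.88 with SE 0.21, adjusted p = 0.00685 in edgeR; -1.13 without shControl replicate 2). CHAF1A (chromosome 19, 4402662 to 4445018) had 68.1, 70.5 and 71.4 CPM in shRNF20 and 80.5, 55.9 and 84.7 CPM in shControl. The shRNF20 libraries lay between the controls (log2 fold change -0.07 with SE 0.14, adjusted p = 0.673 in edgeR), and without shControl replicate 2 the value was -0.26 (edgeR adjusted p = 0.00819).

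Ratios of 2 partner genes within a library do not depend on how libraries are scaled. The ratios are of counts, so they are read between groups and not as levels of 1 gene against the other. CDT1 over GMNN was 0.929, 1.09 and 0.976 in shRNF20 and 1.42, 1.97 and 1.83 in shControl, a log2 difference of -0.79. DBF4 over CDC7 was 1.98, 1.87 and 2.08 in shRNF20 and 1.13, 0.716 and 0.704 in shControl, a difference of 1.25. The first ratio was thus lower and the second higher in every shRNF20 library. RRM2 over RRM1 was 0.455, 0.445 and 0.443 in shRNF20 and 1.13, 0.728 and 0.719 in shControl, a difference of -0.91. CHAF1B over CHAF1A was 0.240, 0.213 and 0.209 in shRNF20 and 0.454, 0.339 and 0.352 in shControl, a difference of -0.78. None of the 4 overlapped between groups. Each holds at least 1 gene that did not overlap by itself, so the ratios partly restate those genes. Of single genes tested, 33.5% lay wholly above the controls and 32.8% wholly below. The share among ratios of other pairs of genes was not computed. The 4 pairs were chosen with earlier results of these data known, so the lack of overlap is not separate support. Each ratio had an exact two-sided permutation p of 0.1 (0.1 after Benjamini-Hochberg adjustment over the 4). That is the smallest that 3 against 3 libraries allow, so none could pass 0.05. shControl replicate 2 was not the extreme control for DBF4 over CDC7 or RRM2 over RRM1, where shControl replicate 1 stood apart.

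**Figure D4:**
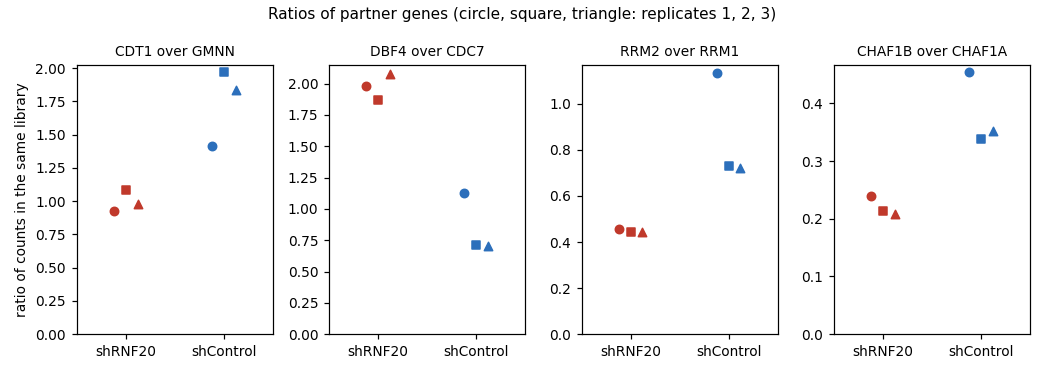
Each panel shows the ratio of counts of 2 partner genes in the same library, with the shRNF20 libraries (red) left of the shControl libraries (blue) and circle, square and triangle for replicates 1, 2 and 3. The y axes start at 0. DBF4 over CDC7 is higher in shRNF20 (1.87 to 2.08) than in shControl (0.704 to 1.13), and the other 3 ratios are lower.

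Other genes of the pathway also went both ways, as did all genes tested. Of 32 further replication factors and 12 checkpoint genes, 43 of 44 were tested, and 10 rose and 12 fell (median log2 fold change -0.14). Thus 51.2% passed, against 58.4% of all genes tested (28.7% higher and 29.8% lower). Without shControl replicate 2 the counts were 11 and 20 of 44, where 29.1% of all genes tested were higher and 30.8% lower. CHTF8, which had too few counts to be tested with all libraries, is among the 11. Without mitochondrial genes in the fit the counts were 10 and 12, where 28.3% of all genes tested were higher and 30.1% lower. Among the factors 7 rose and 8 fell of 31 tested (48.4% passed). ASF1A, a histone chaperone, had 39.7, 37.0 and 34.9 CPM in shRNF20 and 17.7, 16.6 and 15.8 CPM in shControl (log2 fold change 1.15, adjusted p = 3.72e-05 in edgeR). TOP1, which relaxes DNA ahead of forks, also rose (log2 fold change 0.34, adjusted p = 0.00291 in edgeR). DTYMK, the thymidylate kinase, had 45.3, 46.2 and 43.0 CPM in shRNF20 and 98.0, 81.7 and 100.5 CPM in shControl (log2 fold change -1.06, adjusted p = 4.62e-05 in edgeR), and the decatenating topoisomerase TOP2A fell as well (log2 fold change -0.82, adjusted p = 9.15e-05 in edgeR). These 4 genes did not overlap between groups.

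Of the 12 checkpoint genes 3 rose and 4 fell (58.3% passed, against 58.4% of all genes tested). WEE1, the kinase that restrains CDK1 and CDK2, had 114, 111 and 104 CPM in shRNF20 and 61.5, 48.0 and 46.6 CPM in shControl (log2 fold change 1.07, adjusted p = 9.62e-05 in edgeR), and RAD9A, part of the checkpoint clamp, rose by a log2 fold change of 0.86 (edgeR adjusted p = 0.00116). From the sum of the strand columns, which held 3.01 times the counts for RAD9A, its log2 fold change was 0.43 (edgeR adjusted p = 0.00619). TIMELESS, a fork protection factor, had 40.7, 42.4 and 37.1 CPM in shRNF20 and 78.2, 75.0 and 112 CPM in shControl (log2 fold change -1.14, adjusted p = 0.000333 in edgeR). RAD17, which loads that checkpoint clamp, fell with a log2 fold change of -0.47 (edgeR adjusted p = 0.00107). RAD17 shares exons with the antisense genes TAF9 and AK6, and from the strand sum its log2 fold change was -0.11 and did not pass (edgeR adjusted p = 0.212). The G2/M list, set beside the replication genes because shControl replicate 2 was low for both, had 0 higher and 13 lower of 20 (median -0.65). Over all genes tested 28.7% were higher and 29.8% lower. The list had 18 lower without shControl replicate 2 (30.8% of all genes) and 14 lower without mitochondrial genes in the fit (30.1% of all genes). Leaving out any 1 shRNF20 library gave 11 or 12 lower (24% to 24.3% of all genes). There were 12 lower and 1 higher without shControl replicate 1 (4999 and 4727 of 16338 genes). Without shControl replicate 3 the count was 11 lower (4672 of 16470 genes). The list was chosen with earlier results of these data known, so these counts are not separate support. Its smallest p-values belonged to KIF20A (log2 fold change -1.02, adjusted p = 3.16e-05 in edgeR) and CENPE (log2 fold change -1.48, adjusted p = 3.96e-05 in edgeR), a kinesin of the central spindle and a kinesin of the kinetochore.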

How the data were processed

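Per the submitters' processing notes, FastQC 0.12.1 and STAR 2.7.11a were used with genome build hg38; which gene annotation was used is not given in the sources used here. Raw read counts per gene were deposited, unstranded and by strand. Both strand columns were near equal (50.1% to 50.2% in 1 of them), so the unstranded counts were used. Reads over exons of several genes count for none (10.7% to 11.2% of reads), and lines naming no gene (20.9% to 24.1%) were left out. Multimapping reads count for no gene, so genes with pseudogene copies, such as DUT, RRM2, PCNA and DBF4, may be underestimated. Positions and exon lengths came from GENCODE 29 on GRCh38, which may not be the authors' release.

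Counts were fitted with edgeR 4.0.16 in R 4.3.3: filterByExpr (minimum count 10), TMM, quasi-likelihood F-test, shRNF20 over shControl, Benjamini-Hochberg over all genes tested, threshold 0.05. The SE is the log2 fold change over the root of F. The script was tested on simulated data. No pair of libraries agreed within sampling noise, but shRNF20 replicates 1 and 2 came near it. Their mean squared difference per gene was 2.17 times that of sampling noise. Among shRNF20 libraries this value reached at most 8.26, and between controls it was 38.7 to 63.7.

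Alternatives were DESeq2 1.42.0, limma-voom (limma 3.58.1), scaling by RLE or upper quartile, no filter, CPM of at least 1 in 3 libraries, a replicate block, the strand sum, and each library left out. Chosen after seeing the data were the shRNF20 libraries summed and a fit without mitochondrial genes. Members, lists and tests were chosen with earlier results of these data known. In each of 10 classes the 2 genes with the smallest p and the partners of 4 ratios are given in full; of the other lists, the 2 smallest p in each direction past the threshold are named. Further values of single genes were added after they were seen.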

Additional observations from a re-analysis of the deposited data

How the results depend on the processing

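With 1 library left out, 3 to 10 replication genes rose and 9 to 24 fell (9 and 13 with all libraries), and of the other replication and checkpoint genes 7 to 12 rose and 9 to 20 fell (10 and 12). Over all genes those fits had 3617 to 4755 higher and 3906 to 5022 lower, of 16307 to 16470 tested. With all libraries these were 4528 and 4704 of 15797. The median log2 fold change ranged from -0.15 to 0.03 and the median SD over controls from 0.0773, without shControl replicate 2, to 0.41. Summing the shRNF20 libraries to 1 sample left 0 replication genes that rose and 3 that fell in edgeR (3 and 7 at an unadjusted p under 0.05), and 3 and 3 of the other genes. Scaling, tool, filter and count column left 8 to 11 that rose and 13 to 18 that fell. Over all genes, the fit without the filter had 4845 higher and 5490 lower of 32933. The rest of these fits had 4128 to 5118 higher and 4280 to 5322 lower of 13612 to 18397. Without mitochondrial genes 6 rose and 14 fell (10 and 12 of the other genes), where 28.3% of all genes were higher and 30.1% lower. The replicate block gave 11 and 13, with 4418 and 4518 of 15797 over all genes. Replicate numbers do not pair the libraries: deviations of same-numbered libraries correlated between -0.02 and 0.03, and not every library correlated best with its own number. None of the 22 replication genes that passed changed sign in any fit; 15 of the 27 that did not pass did, with log2 fold changes between -0.43 (MCM3, without shControl replicate 2) and 0.22 (MCM5). MCM7, CDC7 and RRM2 kept their call in all 17 fits. POLA2 had the fewest counts of the 49, at 18 to 87 per library, and reads over 35.1% of its exon bases were not counted.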
